A study of Mus musculus with 6 samples.

Results

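Levels of 10 imprinted genes with roles in growth were read in 6 RNA-seq libraries of mouse induced renal epithelial cells (iRECs), which are fibroblasts reprogrammed to a kidney tubule-like state. The genes were taken by name: H19, Igf2, Igf2r, Meg3, Dlk1, Peg3, Mest, Cdkn1c, Grb10 and Plagl1. All 10 were found among the 49671 genes of each count file, and 7 of them were among the 15355 genes with enough reads for a test. Igf2, Meg3 and Dlk1 were not. The cells had the strain background B6.129S4-Pkd1tm2Ggg/J, in which Pkd1, the gene of polycystin-1, carries floxed alleles. Clones 4, 7 and 21 each gave 1 library after Cre transduction (Pkd1 -/-, called Cre here) and 1 after Flp transduction (Pkd1 fl/fl, called Flp), so each group held 3 libraries. All cultures were grown to confluency in the same serum-containing medium before total RNA was taken. Whether each clone derives from its own animal is not in the labels, and p-values therefore cover the variation among these 3 pairs of cultures and nothing wider. The question put to the genes was how stable their levels were between clones, and between the Cre and Flp cultures of a clone.

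An imprinted gene is expressed mainly from the maternal or the paternal chromosome, because DNA methylation laid down in the germ line marks one copy. Such genes sit in clusters under shared control regions, and many act on fetal growth: as a rule the paternally expressed ones promote it and the maternally expressed ones restrain it. Loss or gain of these marks is a known form of drift in cultured and reprogrammed cells. The counts do not separate the parental alleles, so the imprint itself was not measured, only the summed level of both copies.

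Promoter sequence is shown for the member with the highest level, Peg3, and for a neighbouring pair on chromosome 12 that was nearly unread, Dlk1 and Meg3, so that the CG content of an active and of silent starts can be compared. The sequences are the 250 bases before the transcription start, from RefSeq on GRCm38.p6, written 5′ to 3′ on the strand of the gene. Each CG, the dinucleotide that carries DNA methylation, is in capitals. Peg3 lies on the minus strand at chr7:6730420-6730669, Dlk1 on the plus strand at chr12:109452573-109452822, and Meg3, at the first of its RefSeq starts, on the plus strand at chr12:109540746-109540995.
Peg3: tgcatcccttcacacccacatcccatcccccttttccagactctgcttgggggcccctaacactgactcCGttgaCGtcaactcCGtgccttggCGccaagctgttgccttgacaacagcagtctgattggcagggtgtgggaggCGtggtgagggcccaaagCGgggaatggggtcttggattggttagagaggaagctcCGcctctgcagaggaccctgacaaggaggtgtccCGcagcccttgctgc
Dlk1: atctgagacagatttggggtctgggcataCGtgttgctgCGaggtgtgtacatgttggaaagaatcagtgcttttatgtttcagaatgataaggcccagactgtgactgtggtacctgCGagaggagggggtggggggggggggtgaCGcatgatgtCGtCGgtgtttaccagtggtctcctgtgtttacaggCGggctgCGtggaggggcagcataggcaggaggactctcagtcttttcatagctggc
Meg3: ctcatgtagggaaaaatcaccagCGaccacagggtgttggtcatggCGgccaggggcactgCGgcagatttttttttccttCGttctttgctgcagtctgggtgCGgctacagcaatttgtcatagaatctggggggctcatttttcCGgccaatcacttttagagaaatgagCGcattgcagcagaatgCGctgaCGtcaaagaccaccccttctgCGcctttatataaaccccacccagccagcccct
The windows of Peg3 and Dlk1 held 8 CG each and that of Meg3 held 10, against a median of 6 over 32851 such windows of all genes. Peg3 and Dlk1 therefore had the same number of CG at levels far apart. The letters TGCCGC, the recognition sequence of the imprint-protecting zinc finger protein ZFP57, were searched on both strands. They were found once in the Meg3 window, in its minus-strand form, and not in the windows of Peg3 and Dlk1, and 8.68% of all windows held them. Over the members, 8 of 10 had a RefSeq window and 4 of their 15 windows held the letters. The 4 came from 3 genes, Meg3, Mest and Plagl1, because 2 of them are windows of Mest that start 3 bases apart and hold the same sites. The starts of Igf2r and Grb10 richest in CG held 27 and 40 CG, more than 91.4% and 98.7% of all windows. The other Grb10 start held 8. The windows of Igf2, which was nearly unread, held 1 to 22 CG, the richest more than 85.2% of all windows, and the other Meg3 start held 0. CG number thus did not separate genes of high level from nearly unread ones among these windows.

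Total counts ran from 25196120 to 46918341 per library, so that 3 reads, the limit that a count of 0 allows, stood for 0.0632 to 0.121 CPM (counts scaled to library size). Pkd1 read 145 CPM in Cre and 199 CPM in Flp of clone 4, 105.0 and 229 CPM in clone 7, and 118 and 166 CPM in clone 21. It was lower in Cre in every clone but far from absent. Counts per gene do not read the floxed segment apart from the rest of Pkd1, so how complete its deletion was could not be measured. In edgeR's quasi-likelihood test Pkd1 did not pass (log2 difference -0.69, adjusted p = 0.607). In the authors' deposited table it passed, with a log2 fold change of -0.57 and an adjusted p of 0.0370. Markers of renal tubule epithelium named after their values were seen were present in every library: Pax8, a kidney transcription factor, read 239.9 to 286 CPM, Cdh16, the kidney cadherin, 711 to 964 CPM, and Lrp2, the proximal tubule receptor megalin, 2315 to 3937 CPM. Of 8 fibroblast markers 4 were at or under 1 CPM and Thy1 was at 0, with a sum of 158 to 307 CPM in Cre and 238 to 337 CPM in Flp. Other fibroblast markers were read in every library: Vim at 131 to 282 CPM, most of the sum, Twist1 at 15.7 to 26.1 CPM and Pdgfrb at 1.54 to 10.2 CPM. Of the markers with enough reads, 2 differed between clones in some fits. DESeq2 called 1.84% of all genes between clones 21 and 4, and edgeR with no filter 1.17% between clones 7 and 4. Krt18, an epithelial keratin, read 1077 and 1318 CPM in Cre and Flp of clone 4, 1066 and 873 CPM in clone 7, and 659 and 633 CPM in clone 21 (clone 21 minus 4, adjusted p = 0.332 by edgeR and 0.0013 by DESeq2). Col1a1, a fibroblast collagen, read 18.1 CPM in Flp of clone 4 and 2.40 to 5.25 CPM elsewhere, and passed between clones 7 and 4 in edgeR with no filter (adjusted p = 0.0428) but not with the filter (0.556). Their part in the clone differences below was not tested. In skeletal muscle, where several of the 10 genes are high before birth, the defining factors are Myod1 and Myog, and both were at 0 in all libraries. Other muscle markers were read at low levels, Acta1 at 0.746 to 2.09 CPM and Des at 0.174 to 0.848 CPM. The 5 muscle markers summed to 2.33 to 2.46 CPM in Cre and 0.920 to 2.67 CPM in Flp. In bulk RNA, fewer cells of a type and less RNA per cell cannot be told apart.

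The 10 genes covered a wide range of levels. Compared per kilobase of exon, the order by mean was Peg3, Igf2r, Grb10, Plagl1, Cdkn1c, Mest, H19, Igf2, Meg3 and Dlk1. Peg3 ran from 357 to 486 CPM per kb, and its lowest library was above the highest of Igf2r. Igf2r (57.2 to 86.8 CPM per kb) and Grb10 (39.3 to 77.3) overlapped. Plagl1 (7.45 to 24.1) lay below every Grb10 library and above every Cdkn1c library in these counts. For Cdkn1c, 625 of 2039 exon bases are shared with Gm44732. Its mean normalized count in the authors' deposited table was 1.83 times the mean of these counts, so its place below Plagl1 is not secure. Cdkn1c (0.757 to 6.72), Mest (0.780 to 2.01) and H19 (0.0202 to 1.40) each overlapped the next in the order, as did Igf2, Meg3 and Dlk1 at the floor.

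**Figure D1:**
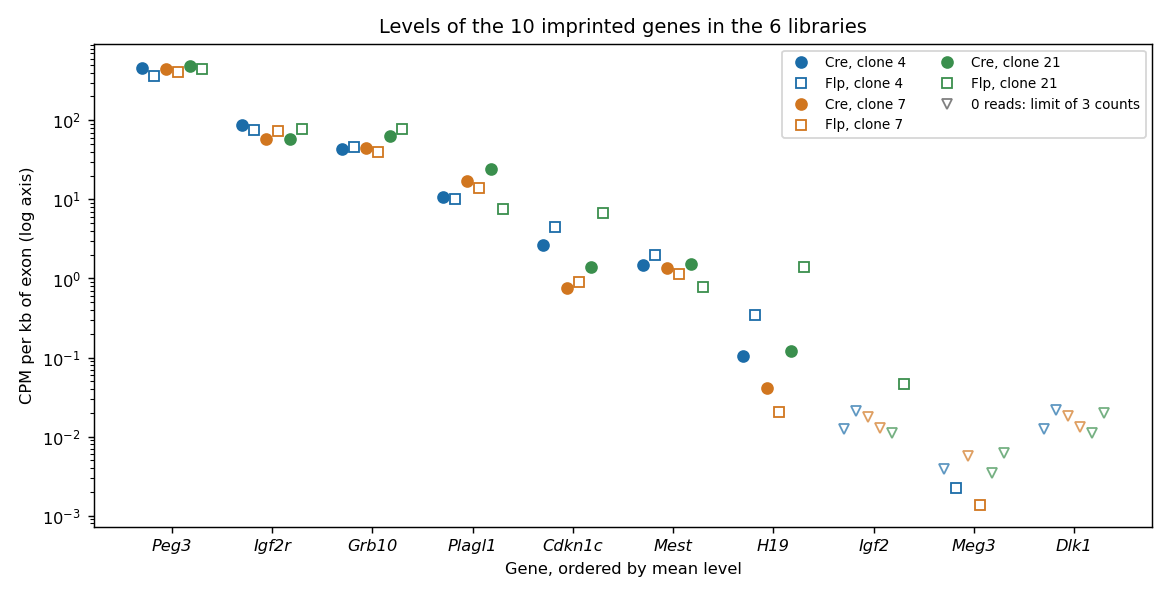
Level of each gene in each library in CPM per kb of exon on a log axis, with filled circles for Cre, open squares for Flp and 1 colour per clone. Triangles mark libraries with 0 reads at the limit of 3 counts; Peg3 sits at 357 to 486 in all 6 libraries, Cdkn1c and H19 spread widely between clones, Meg3 and Dlk1 lie at or under the limit, and Igf2 rises above it with 7 reads in Flp of clone 21 alone.

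Igf2 (ENSMUSG00000048583, chr7:142650766-142666816, minus strand, GRCm38) encodes insulin-like growth factor 2, a fetal growth factor expressed from the paternal copy. It had 0 reads in 5 libraries and 7 reads in Flp of clone 21, where its level was 0.263 CPM (exact 95% Poisson interval 0.106 to 0.541). Set against the limit of 3 counts in Cre of clone 21, which had 0 reads, this level was 4.16-fold higher. That is a ratio to the limit and not a measured difference. With the counting error of the 7 reads included, the exact 95% interval of the Flp over Cre ratio of Igf2 began at 2.57. Of the 5723 exon bases of Igf2, 3596 are shared with Gm49394, and its exons also overlap those of Igf2os, an antisense gene. The 7 reads cannot be told apart from reads of these genes. The strand setting of the counts is not given in the sources used here. How shared reads were counted is not known either, so the counts of 0 carry the same limit.

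H19 (ENSMUSG00000000031, chr7:142575529-142578143, minus strand) is a maternally expressed long noncoding RNA that shares its control region and enhancers with Igf2. It had 11 reads in Cre and 21 in Flp of clone 4, 3 and 2 reads in clone 7, and 14 and 92 reads in clone 21. The levels were 0.260 and 0.848 CPM in clone 4, 0.103 and 0.0497 CPM in clone 7, and 0.295 and 3.45 CPM in clone 21. Flp of clone 21 stood highest, the same library that held the Igf2 reads, and the Cre and Flp ranges overlapped. H19 was 11.7-fold higher in Flp than in Cre of clone 21 (95% counting interval 6.64 to 22.3) and 3.26-fold higher in clone 4 (1.5 to 7.48). In clone 7 the ratio of Cre to Flp was 2.07 with an interval of 0.237 to 24.8, which leaves its direction undetermined at this depth. Intervals of this kind cover counting error only.

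Igf2r (ENSMUSG00000023830, chr17:12682406-12769664, minus strand) is the maternally expressed receptor that takes up Igf2 for breakdown and sorts lysosomal enzymes. It read 808 CPM in Cre and 704 CPM in Flp of clone 4, 533 and 689 CPM in clone 7, and 537 and 716 CPM in clone 21. The 3 Flp libraries were close together (703 ± 13.4 CPM, SD, n = 3), while the Cre libraries (626 ± 158 CPM) lay on both sides of them. Igf2r was higher in Cre in clone 4 and lower in Cre in clones 7 and 21.

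Grb10 (ENSMUSG00000020176, chr11:11930508-12038683, minus strand) encodes an adaptor that binds the insulin and IGF-1 receptors and restrains their signal. It read 393 CPM in Cre and 412 CPM in Flp of clone 4, 409 and 357 CPM in clone 7, and 582 and 702 CPM in clone 21. Both libraries of clone 21 stood above the other 4, and the Cre and Flp ranges overlapped.

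Cdkn1c (ENSMUSG00000037664, chr7:143458339-143461050, minus strand) encodes p57Kip2, an inhibitor of cyclin-dependent kinases expressed from the maternal copy. It read 5.44 CPM in Cre and 9.05 CPM in Flp of clone 4, 1.54 and 1.84 CPM in clone 7, and 2.82 and 13.7 CPM in clone 21. Both libraries of clone 7 were below the other 4, and Flp of clone 21 was the highest. The exons of Cdkn1c share 625 bases with Gm44732, and reads there cannot be told apart. Within clone 21 Cdkn1c was 4.85-fold higher in Flp (95% counting interval 3.97 to 5.96), within clone 4 it was 1.66-fold higher (1.38 to 2.01), and in clone 7 the interval of 0.812 to 1.77 included no difference.

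Plagl1 (ENSMUSG00000019817, chr10:13060504-13131694, plus strand) encodes a zinc finger transcription factor, also called ZAC1, that is linked to cell cycle arrest and to the control of other imprinted genes. It read 84.1 CPM in Cre and 79.0 CPM in Flp of clone 4, 134 and 110.3 CPM in clone 7, and 188 and 58.3 CPM in clone 21. Cre of clone 21 was the highest library and Flp of clone 21 the lowest, so the groups overlapped across clones. Plagl1 was 3.23-fold higher in Cre of clone 21 (3.06 to 3.41), against 1.06-fold in clone 4 and 1.21-fold in clone 7.

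Peg3 (ENSMUSG00000002265, chr7:6703892-6730431, minus strand) encodes a large paternally expressed zinc finger protein. It read 6072 CPM in Cre and 4762 CPM in Flp of clone 4, 5871 and 5463 CPM in clone 7, and 6477 and 5869.7 CPM in clone 21. Its mean of 5753 ± 587 CPM (SD, 6 libraries) was the highest of all 49671 genes, and it ranked 18 among 49412 genes per kb of exon. Peg3 was the one member whose Cre and Flp libraries did not overlap, 1 of 7 tested, against 8.13% of all 15355 genes tested. The margin was small: the lowest Cre value, 5871 CPM with a 95% counting interval of 5844 to 5899, was not distinct from the highest Flp value of 5869.7 CPM (5841 to 5899).

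Mest (ENSMUSG00000051855, chr6:30723547-30748465, plus strand), a paternally expressed gene of a hydrolase-like protein, read 5.82 CPM in Cre and 7.92 CPM in Flp of clone 4, 5.31 and 4.50 CPM in clone 7, and 5.96 and 3.08 CPM in clone 21. The Cre libraries were close (5.70 ± 0.340 CPM, SD, n = 3) and lay within the Flp range (5.16 ± 2.49 CPM). Its exons share 912 bases with Copg2, a coat protein gene that read 49.0 to 76.7 CPM, and reads there cannot be told apart.

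Dlk1 (ENSMUSG00000040856, chr12:109452823-109463336, plus strand), a paternally expressed Notch-like membrane protein, had 0 reads in all 6 libraries. Meg3 (ENSMUSG00000021268, chr12:109541001-109571726, plus strand), the maternally expressed noncoding RNA of the same cluster, had 2 reads, 1 each in Flp of clones 4 and 7. Of the other genes listed with that cluster, Rtl1 had 3 reads, Rian 1, Mirg 0 and Begain 9, out of 210174236 reads over all libraries. Wdr25, listed there too, was not low in this way, with a mean of 5.15 CPM and reads in every library. Dio3, the thyroid hormone deiodinase gene at the far end of the cluster, had 64 reads, 33 of them in Flp of clone 21; it was singled out after its values were seen. The silent transcripts were thus of both parental classes, in Cre and Flp of every clone.

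Across the 3 clones, no member differed between Cre and Flp in edgeR's quasi-likelihood test with clone as a block, 0 of 7 tested against 0% of all genes, at an adjusted p threshold of 0.05. None had an unadjusted p below that threshold either, against 6.82% of all genes. In DESeq2 2 did (Cdkn1c and Plagl1), beside 1131 of 15355 genes. In limma-voom 2 did (Cdkn1c and H19), beside 1116 of 15355 genes. In edgeR with no filter on low counts 3 did (Cdkn1c, H19 and Plagl1), beside 1656 of 28286 genes. No adjusted p passed in those fits, in which the share of all genes called was 1.44% by DESeq2, 0% by limma-voom and 0.792% with no filter. The log2 difference of Cdkn1c was -1.10 (SE 0.45, edgeR adjusted p = 0.732, and 0.249 to 1 over 9 alternatives), lower in Cre in 3 of 3 clones. That of H19 was -2.06 (SE 0.85, edgeR adjusted p = 0.734), lower in 2 of 3. That of Plagl1 was 0.68 (SE 0.32, edgeR adjusted p = 0.782), higher in 3 of 3. Clone 21 carried much of each: without it the difference of Cdkn1c was -0.51 and that of Plagl1 0.18, and H19 no longer had enough reads for the test.

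The remaining members differed by less. Peg3 differed by 0.20 (SE 0.13), Mest by 0.24 (SE 0.34), Igf2r by -0.20 (SE 0.16) and Grb10 by -0.05 (SE 0.13) on the log2 scale, with edgeR adjusted p-values of 0.874 to 0.983. Peg3, Cdkn1c and Plagl1, 3 of 7, kept 1 direction in all clones, against 27.7% of all genes tested.

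Set out by clone, the Cre over Flp ratios of the members were narrowest in clone 7 and widest in clone 21. The median size of the log2 ratio, whatever its sign, was 0.35 in clone 4, 0.25 in clone 7 and 0.94 in clone 21, beside 0.25, 0.27 and 0.24 over all genes tested. Past a log2 ratio of 1 lay 1 of 7 members in clone 4 (H19), 0 in clone 7 and 3 in clone 21 (H19, Cdkn1c and Plagl1), against 8.81%, 11.2% and 9.55% of all genes. H19, Cdkn1c and Grb10, 3 of 7, had their highest level of all in Flp of clone 21, against 17.2% of all genes. With 1 library per clone and group, the difference between the clones' ratios could not be tested.

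**Figure D2:**
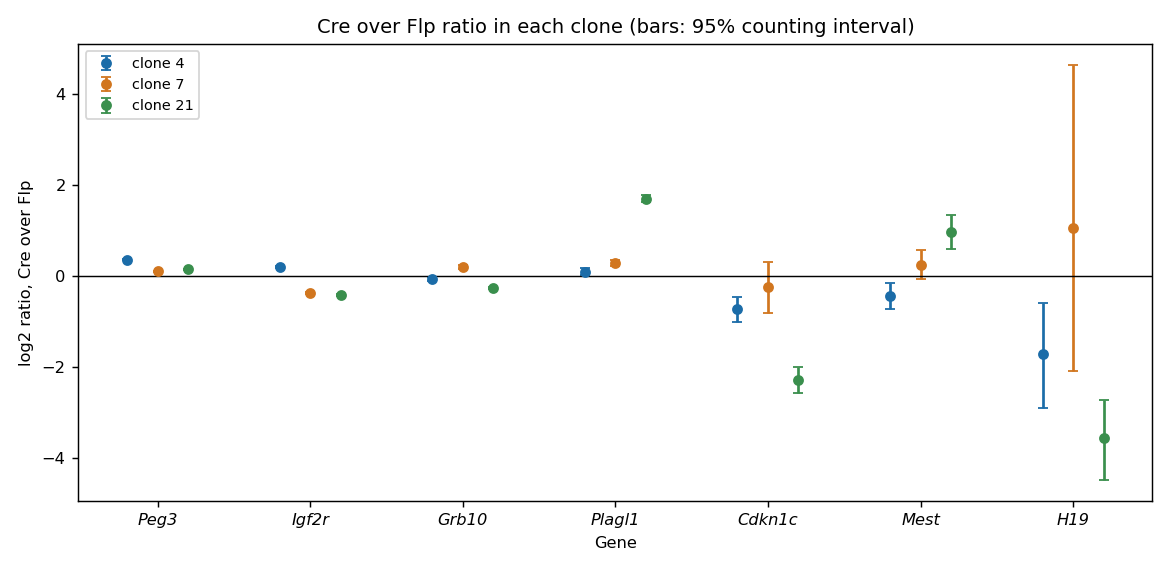
Ratio of Cre to Flp CPM in each clone on a log2 axis, for the 7 genes with enough reads, with bars for the 95% interval of counting error and no prior count added. The clone 21 points of Plagl1 (3.23-fold up) and of Cdkn1c and H19 (4.85- and 11.7-fold higher in Flp) stand away from the other clones, while Peg3, Igf2r and Grb10 stay near the line.

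The genes around each member were read for comparison. Among expressed genes starting within 5 Mb of a member, 11 to 86 genes, the median log2 ratio lay between -0.09 and 0.19 in every clone and for all 10 members. In clone 21 it was -0.07 around Cdkn1c, whose own log2 ratio with a prior count of 2 was -2.26. Around Plagl1 it was 0.14 beside 1.69, and around H19 it was -0.08 beside -3.32. A median does not speak for single neighbours.

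Between clones, the joint test of any clone difference called 0 of 7 members by edgeR, against 0.00651% of all genes, and 3 of 7 had an unadjusted p below 0.05, against 8% of all genes. These were Grb10 (edgeR adjusted p = 0.404), Cdkn1c (adjusted p = 0.551) and H19 (adjusted p = 0.578). Other tools called some of them: DESeq2 2 (Cdkn1c and Grb10, 2.86% of all genes), edgeR with no filter 3 (with H19, 1.83%) and limma-voom 0 (0%). By pair of clones, edgeR called 0 of 7 each time, against 0% of all genes for clones 7 and 4 and 0.013% for both contrasts with clone 21. The unadjusted p was below 0.05 for 1 member between clones 7 and 4 (Cdkn1c, background 6.86%), for 1 between clones 21 and 4 (Grb10, 9.17%) and for 3 between clones 21 and 7 (Cdkn1c, Grb10 and H19, 5.76%). DESeq2 called 1 between clones 7 and 4 (2.18% of all genes), 1 between clones 21 and 4 (1.84%) and 2 between clones 21 and 7 (0.942%). With no filter, edgeR called 1 (1.17%), 1 (1.09%) and 3 (0.64%) in the same order.

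Grb10 had a mean of 402 CPM in clone 4, 383 CPM in clone 7 and 642 CPM in clone 21. The log2 difference was 0.67 (SE 0.16) between clones 21 and 4 and 0.74 (SE 0.16) between clones 21 and 7, with edgeR adjusted p-values of 0.373 and 0.599. DESeq2 gave 0.0251 and 0.0122, and over 12 alternatives the adjusted p ran from 0.0242 to 0.999 and from 0.0122 to 1. Clone 21 was thus 1.6-fold above clone 4 and 1.68-fold above clone 7 for this inhibitor of insulin and IGF-1 receptor signalling.

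Cdkn1c had means of 7.24, 1.69 and 8.26 CPM in clones 4, 7 and 21. Clone 7 was 4.28-fold below clone 4 and 4.88-fold below clone 21. The log2 differences were -2.04 (SE 0.55) for clone 7 against 4 and 1.97 (SE 0.56) for clone 21 against 7, with edgeR adjusted p-values of 0.468 and 0.759 and DESeq2 values of 0.0138 and 0.0404. Over 12 alternatives those p-values ran from 0.0138 to 0.896 and from 0.0332 to 1. Single libraries moved the size of both differences. Clone 7 minus 4 ran from -2.73 without Cre of clone 7 to -1.49 without Flp of clone 7. Clone 21 minus 7 ran from 1.0 without Flp of clone 21 to 2.77 without Cre of clone 21.

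H19 had means of 0.554, 0.0763 and 1.87 CPM in the same order, at or near the limit of detection in clone 7. The log2 difference between clones 21 and 7 was 4.09 (SE 1.14, edgeR adjusted p = 0.759, 0.0343 to 1 over 12 alternatives), and it ran from 2.02 without Flp of clone 7 to 5.71 without Cre of clone 7. Between clones 7 and 4 the difference of H19 was -2.76 (SE 1.16, edgeR adjusted p = 0.745), called in 0 of 12 alternatives. It shrank to -0.80 without Flp of clone 7. Clone 7 thus had the lowest mean for H19 and Cdkn1c, both maternally expressed genes of distal chromosome 7, but for H19 this rests on 3 and 2 reads. Other genes near Cdkn1c did not all follow. In clones 4, 7 and 21, Phlda2 had means of 26.7, 16.9 and 14.3 CPM, and Slc22a18 of 10.7, 6.28 and 6.68 CPM. The remaining members, Peg3, Igf2r, Mest and Plagl1, differed between clones by at most 0.65 on the log2 scale. Over the 6 libraries the coefficient of variation was 10.2% for Peg3, 16.4% for Igf2r, 28.5% for Grb10, 29.7% for Mest, 43.0% for Plagl1, 83.9% for Cdkn1c and 157% for H19, beside a median of 17.8% over all genes tested.

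**Figure D3:**
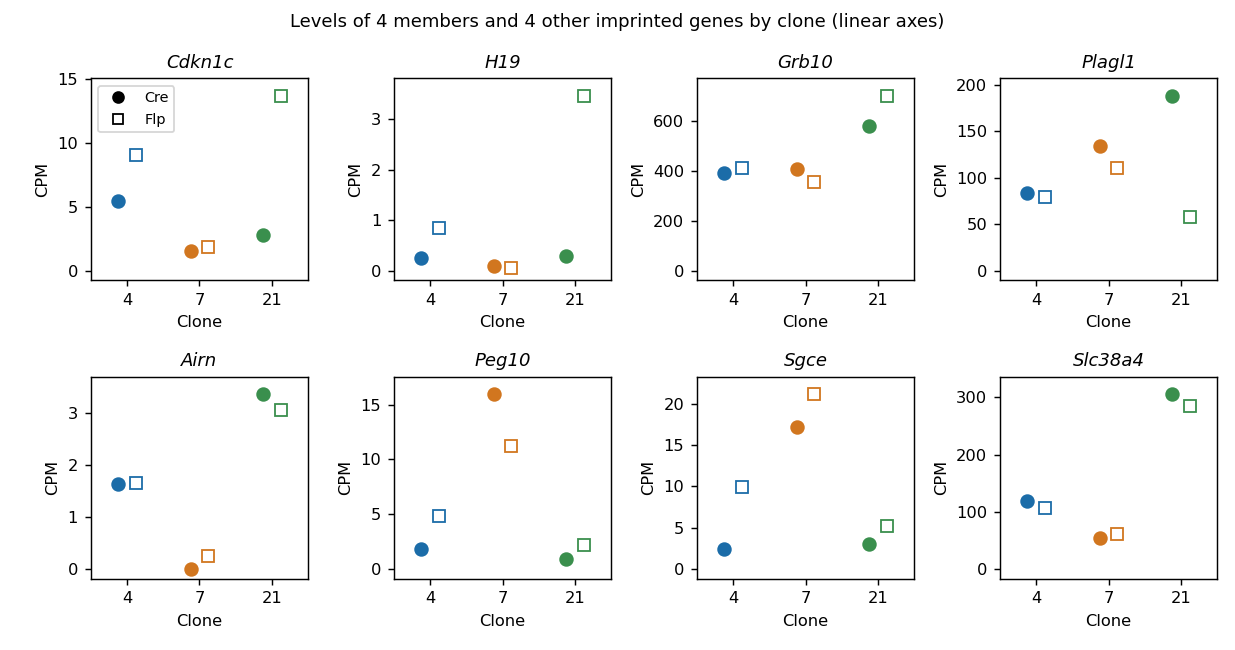
Level in CPM on linear axes by clone, with filled circles for Cre and open squares for Flp, for 4 members (top) and 4 other imprinted genes (bottom). The genes shown were picked after their values were seen and do not stand for imprinted genes at large. Clone 7 is low for Cdkn1c, H19 and Airn and high for Peg10 and Sgce, both clone 21 libraries are high for Grb10 and Slc38a4, and Flp of clone 21 stands alone for Cdkn1c and H19.

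Genes of the same clusters were followed next. Of 36 listed neighbours in the counts 17 had enough reads. EdgeR called 0 between Cre and Flp and 0 between clones, against 0% and 0.00651% of all genes. At an unadjusted p below 0.05 lay 1 and 3, against 6.82% and 8% of all genes. In the joint clone test DESeq2 and edgeR with no filter each called 1, Airn, beside 2.86% and 1.83% of all genes. Limma-voom called none there, beside 0%. Between clones 7 and 4, edgeR with no filter also called Zim1, beside 1.17% of all genes. DESeq2, limma-voom and edgeR with no filter called none between Cre and Flp, beside 1.44%, 0% and 0.792% of all genes. The median Cre minus Flp log2 difference of the neighbours was -0.04, beside 0.00 over all genes.

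Airn is the noncoding RNA whose transcription across Igf2r silences the paternal Igf2r copy in mouse tissues. It read 1.63 CPM in Cre and 1.66 CPM in Flp of clone 4, 0 and 0.249 CPM in clone 7, and 3.35 and 3.04 CPM in clone 21. The 3 clones did not overlap, with clone 7 at or near the limit, yet Igf2r itself did not follow that order. The joint clone test of Airn gave an adjusted p of 0.451 by edgeR, 0.00313 by DESeq2, 0.00132 with no filter and 0.31 by limma-voom. In the Peg3 cluster, Zim1, a zinc finger gene, read 155, 36.2 and 53.6 CPM in Cre and 110.0, 102 and 124 CPM in Flp of clones 4, 7 and 21. It was higher in Cre in clone 4 and lower in Cre in clones 7 and 21, while Usp29, a ubiquitin protease gene, ran between 74.9 and 112 CPM. Kcnq1ot1, the noncoding RNA that controls the Cdkn1c domain, ran from 24.8 to 49.9 CPM without following Cdkn1c, its highest library being Flp of clone 7. Phlda2, a placental growth restrainer near Cdkn1c, and Phactr2 near Plagl1 were the other neighbours with an unadjusted clone p below 0.05 (edgeR adjusted p = 0.580 and 0.599). Cobl, an actin nucleator gene next to Grb10, was the one with an unadjusted Cre against Flp p below 0.05 (log2 difference 0.38, SE 0.15, edgeR adjusted p = 0.703). Above a mean of 1 CPM lay also Mrpl23, Cd81, Tssc4, Slc22a18, Nap1l4, Osbpl5, Wdr25, Copg2 and Sf3b5, whose Cre minus Flp differences ran from -0.22 (Copg2) to 0.12 (Wdr25) on the log2 scale.

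Of 20 partners of the growth pathway (IGF receptors and binding proteins, insulin receptor substrates, RNA-binding regulators of Igf2) 15 had enough reads. EdgeR called 0 between Cre and Flp and 0 between clones, against 0% and 0.00651% of all genes. At an unadjusted p below 0.05 lay 2 and 3, against 6.82% and 8% of all genes. The partners' median Cre minus Flp log2 difference was -0.01. Between clones DESeq2 called 1 (Igfbp5, beside 2.86% of all genes), edgeR with no filter 2 (Igfbp1 and Igfbp5, 1.83%) and limma-voom 0 (0%). None of these called any partner between Cre and Flp, beside 1.44%, 0.792% and 0% of all genes. Igf1r, the receptor through which IGF2 signals, was steady at 538 to 660 CPM, named here after its values were seen. Igfbp5, a secreted IGF-binding protein, read 66.5, 56.2 and 11.5 CPM in Cre and 133, 124 and 10.3 CPM in Flp of clones 4, 7 and 21. Both clone 21 libraries were the lowest, and the joint clone test gave adjusted p-values of 0.181 by edgeR, 4.93e-15 by DESeq2, 1.04e-07 with no filter and 0.144 by limma-voom. Igfbp1, another binding protein, read 6.87 CPM in Flp of clone 21 and 0.103 to 0.653 CPM elsewhere, again in the library where H19 and Cdkn1c were highest. Lin28b, an RNA-binding regulator of fetal growth genes, was higher in Cre in 3 of 3 clones, at 19.3, 27.0 and 31.3 CPM against 15.3, 18.8 and 17 CPM in clones 4, 7 and 21 (log2 difference 0.58, SE 0.17, edgeR adjusted p = 0.636). Hmga2, a chromatin protein gene, was the other one with an unadjusted clone p below 0.05 (edgeR adjusted p = 0.520).

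Of 20 genes that set or keep DNA methylation marks (DNA methyltransferases, TET enzymes, Uhrf1, Trim28, Zfp57 and others) 18 had enough reads, and Dppa3 and Nlrp2, which act in egg and early embryo, were at 0. EdgeR called 0 between Cre and Flp and 0 in the joint clone test, against 0% and 0.00651% of all genes. At an unadjusted p below 0.05 lay 1 and 0, against 6.82% and 8% of all genes. DESeq2, limma-voom and edgeR with no filter also called 0 of these genes. Of all genes they called 1.44%, 0% and 0.792% between Cre and Flp, and 2.86%, 0% and 1.83% between clones. For the 18 genes the median Cre minus Flp log2 difference was 0.05 and the median coefficient of variation 13%. Ctcf, the insulator protein that binds the H19 and Igf2 control region, was the one below 0.05 (log2 difference 0.32, SE 0.12, edgeR adjusted p = 0.686). Zfp57, named after its values were seen, read 199.6 to 249 CPM in all libraries.

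The gene most like each member over the 6 libraries, by Pearson correlation of log2 CPM among 12978 other genes, was Sfxn4 for Igf2r (0.996), Cep120 for Peg3 (0.983), Ifngr1 for Mest (0.984), Ctnnb1 for Cdkn1c (0.995), Npm1 for Grb10 (0.997) and Taf9b for Plagl1 (0.994). With 6 points that share libraries and depth, 22 to 62 genes reached 0.95 for each member, so these values are descriptions only.

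In the authors' deposited table no member had an adjusted p below 0.05, beside 1.37% of the 12973 genes with one. The smallest was that of Cdkn1c, 0.0724 with a log2 fold change of -0.67, followed by H19 at 0.245 (-0.42) and Plagl1 at 0.321 (0.47) in the authors' deposited table. The mean of normalized counts in the authors' deposited table differed from the mean of the deposited counts for some members. For Peg3 it was 112513 against 195085, a ratio of 0.577, and Peg3 then ranked 3 of 24421 genes in the authors' deposited table rather than 1. For Cdkn1c it was 355 against 194 in the deposited counts, a ratio of 1.83, while the median ratio over 12855 genes was 0.994 and 84.2% of them lay between 0.8 and 1.2. The ratio was 1.19 for H19, 0.895 for Plagl1 and 0.981 to 1.01 for Igf2r, Grb10, Mest, Igf2 and Meg3. The gene annotation behind either table is not given in the sources used here, and the cause of these gaps was not tested.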

How the data were processed

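RNA from 6 cultures was sequenced, 3 Cre and 3 Flp, as 1 library each from clones 4, 7 and 21. DESeq2 2.11.40.1, featureCounts 1.6.0.3, STAR 2.5.2b-2, FastQC 0.67 and Trim Galore 0.4.3.0 are named in the notes on processing, with builds mm10 and GRCm38, per the submitters' processing notes. Strand setting, read layout and annotation were not given in the sources used here. The authors deposited whole-number counts per Ensembl gene, not normalized. A table of the authors' own Cre against Flp comparison was deposited too, with mean normalized counts (a signal), log2 fold change, its standard error and Wald statistic (each entered as a score), and raw and adjusted p-values. Its positive fold changes were taken to mean higher in Cre, as 95.6% of signs matched the fit here.

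Symbols, coordinates and exon lengths came from GENCODE release M21, which held 49412 of 49671 identifiers and lacked 259. Counts were tested in R 4.3.3 with edgeR 4.0.16 (filterByExpr with a minimum count of 10, TMM, quasi-likelihood, clone as a block, 2 residual degrees of freedom). Benjamini-Hochberg adjustment ran over all genes tested, with a threshold of 0.05. CPM used TMM-scaled sizes of the genes tested. Clone differences came from the same fit, in which the Cre and Flp library of a clone stood in as its 2 libraries. Their p-values therefore do not measure the variation between cultures of a clone given the same treatment. Alternatives were no filter, other scaling, DESeq2 1.42.0, limma-voom 3.58.1, no block, clone means only and libraries left out, and counting members and lists under 3 of them was chosen after seeing the data. The code was tested on simulated data. The series' design pairs the clones. Libraries of a clone deviated together from their group means (correlation 0.20, 0.11 and 0.30), unlike those of different clones (-0.27 to 0.02). Centring on the group means ties these values together, so the low values between clones follow in part from the high ones and are not separate evidence of pairing. A tubule marker other than those named is not reported here. Members and lists were chosen with earlier results of these data known. Named beside the members were genes of the cluster neighbour, growth partner and methylation keeper lists with an unadjusted edgeR p below 0.05, genes of a member's cluster with a mean of at least 1 CPM, and the gene most like each member with such a mean. Figures were drawn with matplotlib 3.10.9.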

Additional observations from a re-analysis of the deposited data

How the results depend on the processing

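Of 62 recomputed Cre minus Flp differences of the members 60 kept their direction and side of the threshold, as did 226 of 252 clone differences, while 9 came to pass the threshold and 17 changed direction. Counts of genes past the threshold were less stable. Between Cre and Flp the count was 0, but 224 with no filter on low counts and 196 by DESeq2. It was 0 with other scaling, by limma-voom and with any 1 clone left out, where H19 without clone 21 had too few reads for a value. Clone 7 against 4 gave 0, then 331 with no filter, 296 by DESeq2 and 0 to 10 with libraries left out. Clone 21 against 4 gave 2, then 307 with no filter, 1 with no scaling factor, 282 by DESeq2, 0 by limma-voom and 0 to 31 with libraries left out. Clone 21 against 7 gave 2, then 181, 139 by DESeq2, 0 by limma-voom and 0 to 17. Any clone difference gave 1, then 519, 414 by DESeq2, 0 by limma-voom, 2 without the group term and 0 to 24. The cause was not tested. Without the replicate block the Cre and Flp count was 0 and no member passed, with Cdkn1c at -1.32, H19 at -2.65 and Plagl1 at 0.71.

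Without the group term the clone 21 minus 4 difference of Cdkn1c was 0.19, where the fit with that term gave -0.067. The clone 21 minus 7 difference of Plagl1 was 0.014 without that term and -0.14 with it. With clones left out, Cre minus Flp ran from -0.11 to 0.59 for Mest and from -0.17 to 0.060 for Grb10. With single libraries left out, direction also changed for clone 21 minus 4 of H19 (-0.36 to 2.39), Igf2r (-0.58 to 0.014), Cdkn1c (-1.06 to 0.71) and Plagl1 (-0.39 to 1.12). It changed for clone 21 minus 7 of Igf2r (-0.13 to 0.19), Mest (-0.73 to 0.34) and Plagl1 (-0.97 to 0.54). It changed for clone 7 minus 4 of Peg3 (-0.039 to 0.19), Mest (-0.98 to 0.056) and Grb10 (-0.26 to 0.10). A clone left with 1 library is assumed to vary like the others. With 143 reads of H19 in all, its ratios rest on few counts.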

Other observations

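The genes named in this section were picked from 35 other imprinted genes after their values were seen. Of the imprinted genes outside the 10, Slc38a4 passed the edgeR threshold between clones 21 and 7. Slc38a4, an amino acid transporter gene expressed from the paternal copy, read 118 and 108 CPM in Cre and Flp of clone 4, 54.6 and 60.6 CPM in clone 7, and 305 and 286 CPM in clone 21. The Cre and Flp libraries of a clone were close and the clones did not overlap. Clone 21 minus clone 7 was 2.36 on the log2 scale (SE 0.14), with an adjusted p of 0.0309 by edgeR's quasi-likelihood test, 5.8e-35 by DESeq2 and 0.0519 by limma-voom, beside 0.013% of all genes called in that contrast by edgeR. Peg10 and Sgce, paternally expressed neighbours on chromosome 6, were both highest in clone 7. Peg10 read 15.9 and 11.3 CPM there, 1.85 and 4.81 CPM in clone 4, and 0.885 and 2.18 CPM in clone 21. Sgce read 17.2 and 21.2 CPM in clone 7, 2.41 and 9.89 CPM in clone 4, and 3.05 and 5.22 CPM in clone 21. Their joint clone test gave adjusted p-values of 0.325 and 0.353 by edgeR, 1.97e-06 and 3.19e-05 by DESeq2, and 0.334 and 0.357 by limma-voom.

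Ndn, a paternally expressed growth suppressor gene, was lower in Cre in 3 of 3 clones, at 67.9, 35.8 and 59.7 CPM against 93.0, 81.1 and 89.1 CPM in clones 4, 7 and 21. Its log2 difference was -0.74 (SE 0.17), with an adjusted p of 0.607 by edgeR, 0.0252 by DESeq2, 0.0256 with no filter and 0.507 by limma-voom. Of 35 other imprinted genes listed, 24 had enough reads. EdgeR called 0 of them between Cre and Flp, with 2 at an unadjusted p below 0.05 (6.82% of all genes), and 0 in the joint clone test, with 4 (8% of all genes). DESeq2 and edgeR with no filter called 1 between Cre and Flp (Ndn, beside 1.44% and 0.792% of all genes) and 3 between clones (Peg10, Sgce and Slc38a4, beside 2.86% and 1.83%), and limma-voom 0 in both. Their median Cre minus Flp difference was -0.23 on the log2 scale, with 6 higher and 18 lower in Cre, beside a median of 0.00 over all genes.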
